A study of Mus musculus with 18 samples.

Results

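The T cell receptor signal is tuned by a set of surface receptors that either add to it or restrain it, and 10 of their genes were followed here: Cd28, Icos, Pdcd1, Ctla4, Cd226, Cd96, Tigit, Cd160, Lag3 and Havcr2. They were picked by name as inhibitory or costimulatory receptors, and each of the 10 was matched to the probe set that carried its symbol alone. All 10 had 1 such probe set among 41345 on the array, of which 23521 carried 1 symbol. After a filter on dim genes, described below with the levels, 13034 genes were tested and 8 of the 10 receptors were among them.

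Expression was measured on 18 Affymetrix MoGene-2_0 arrays in invariant natural killer T (iNKT) cells, thymus-derived T cells that see lipids on CD1d and acquire effector functions before they meet a pathogen. The Mst1KO cells came from Cd4CreMst1fl/fl mice, in which Cre recombinase under the Cd4 promoter deletes floxed Mst1 (Stk4, a kinase of the Hippo pathway) from T lineage cells, and the WT cells came from C57BL/6 mice. The strain is given as C57BL/6 for both genotypes; age and sex, and whether the WT mice carried Cre or the floxed alleles, are not given in the sources used here. Cells of each genotype were sorted by CD1d tetramer, TCR beta and absence of CD24 into S1 (CD44-, NK1.1-), S2 (CD44+, NK1.1-) and S3 (CD44+, NK1.1+), with 3 arrays for each of the 6 groups. Thymocytes had first passed a CD8 microbead step, and whether it kept or removed CD8-bearing cells is not clear from the labels.

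The series design gives 3 mice per genotype, and the labels do not say what a replicate number marks, so a p-value here reflects how much these arrays vary, and part of that variation may be technical. Each group is a bulk sort, in which fewer cells expressing a gene and less RNA per cell cannot be told apart. Values are log2 expression; group levels are mean ± SD and differences are log2 difference ± SE, with n = 3 arrays per group throughout. Differences were tested with limma across all 13034 genes and called at an adjusted p under 0.05. The 3 arrays per group limit the precision, and the 95% intervals given come from the same fit.

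The array medians lay between 4.81 and 4.93, and within a group the arrays correlated across probe sets at 0.976 to 0.986. Zbtb16 and Cd3e, which mark iNKT and T cells, were far above these medians in every group, with lowest array values of 9.86 and 11.5. Cd24a, whose protein the gate excludes, lay between 3.93 and 5.37. Stk4 was lower in Mst1KO with no overlap between genotypes at any stage, with differences of -0.29 ± 0.11 at S1, -0.35 ± 0.11 at S2 and -0.39 ± 0.11 at S3, but it was not called (adjusted p = 0.34, 0.173 and 0.0767). A whole-transcript probe set also reads exons that a conditional deletion leaves in place, which makes this a weak check of the labels.

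CD28 and ICOS are related receptors that add a costimulatory signal through PI3-kinase when they meet B7 family ligands. PD-1 (Pdcd1) and CTLA-4 belong to the same family and restrain T cells, PD-1 by recruiting the phosphatases SHP-1 and SHP-2 and CTLA-4 by competing with CD28 for CD80 and CD86. CD226, CD96 and TIGIT share nectin-like ligands: CD226 activates, TIGIT restrains, and for CD96 both roles have been described. CD160, LAG-3 and TIM-3 (Havcr2) bind HVEM, MHC class II and galectin-9 among other ligands, and all are found on activated or chronically stimulated lymphocytes. In iNKT cells ICOS and CD28 are known to support development and cytokine production, and NK1.1+ iNKT cells share much of their receptor repertoire with NK cells.

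Promoters of 6 of the 10 genes were in the RefSeq table used here (build GRCm38.p6), and 4 are shown because these genes differed between the stages described below, Tigit, Cd96 and Cd160 with higher and Pdcd1 with lower RNA at S3 in WT. Each line gives the 250 bases before the annotated start, 5′ to 3′ on the strand of the gene, and capitals mark matches to a short motif of a T-box, RUNX, AP-1 or NFAT factor.
Tigit, chr16:43664185-43664434, minus strand: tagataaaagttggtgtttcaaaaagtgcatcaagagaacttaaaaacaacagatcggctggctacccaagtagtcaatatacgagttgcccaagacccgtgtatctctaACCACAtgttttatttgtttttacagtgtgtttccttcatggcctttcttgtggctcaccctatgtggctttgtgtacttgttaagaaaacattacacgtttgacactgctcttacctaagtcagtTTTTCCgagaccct
Cd96, chr16:46120249-46120498, minus strand: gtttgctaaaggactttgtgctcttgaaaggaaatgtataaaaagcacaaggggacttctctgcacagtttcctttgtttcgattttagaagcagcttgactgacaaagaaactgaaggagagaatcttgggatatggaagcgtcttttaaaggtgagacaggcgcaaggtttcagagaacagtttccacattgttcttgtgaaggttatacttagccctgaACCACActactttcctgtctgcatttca
Cd160, chr3:96829352-96829601, minus strand: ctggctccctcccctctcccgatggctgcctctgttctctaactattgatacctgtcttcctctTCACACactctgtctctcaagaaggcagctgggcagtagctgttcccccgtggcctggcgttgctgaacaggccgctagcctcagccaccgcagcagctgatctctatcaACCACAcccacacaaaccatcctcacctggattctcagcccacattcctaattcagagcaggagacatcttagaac
Pdcd1, chr1:94052554-94052803, minus strand: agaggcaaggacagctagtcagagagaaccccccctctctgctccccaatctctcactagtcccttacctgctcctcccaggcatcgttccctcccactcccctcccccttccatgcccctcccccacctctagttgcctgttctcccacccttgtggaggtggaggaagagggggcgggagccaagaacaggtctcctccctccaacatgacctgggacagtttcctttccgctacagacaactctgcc

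The letters searched on both strands were GTGTGA for T-box, TGTGGT for RUNX, TGANTCA for AP-1 and GGAAAA for NFAT factors, and no matches overlapped. Of 32851 mouse promoters of the same length, 12.3% held the T-box letters, 14% the RUNX letters, 6.75% the AP-1 letters and 20.4% the NFAT letters. The Tigit window held RUNX letters at positions -140 to -135 from the start and NFAT letters at -14 to -9. The Cd96 window held RUNX letters at -28 to -23, and the Cd160 window T-box letters at -186 to -181 and RUNX letters at -76 to -71. A further annotated start of Cd160 also had both, at -188 to -183 and at -101 to -96. None of the 4 motifs was in the Pdcd1 window. These matches describe the letters only, and no binding was measured. On the chromosomes, Cd28, Ctla4 and Icos follow each other on chromosome 1 with no other protein-coding gene between them, whereas Tigit and Cd96 lie on chromosome 16 with 33 protein-coding genes between them, and Lag3 stands beside Cd4 on chromosome 6.

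Of the 10 receptors, 6 (Pdcd1, Lag3, Cd28, Icos, Cd96 and Cd226) lay above the median of their own array on all 18 arrays and Cd160 on 17. Tigit did so on 5 arrays only, 2 of Mst1KO S3 and 3 of WT S3. Ctla4 and Havcr2 were never above it. The filter asked for at least 3 arrays above the median, so Tigit passed through S3 alone and had to differ between stages to be tested, while Ctla4 and Havcr2 were left out and are described with a fit that had no filter. Levels of different genes are not compared, because each comes from its own probe set.

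**Figure D1:**
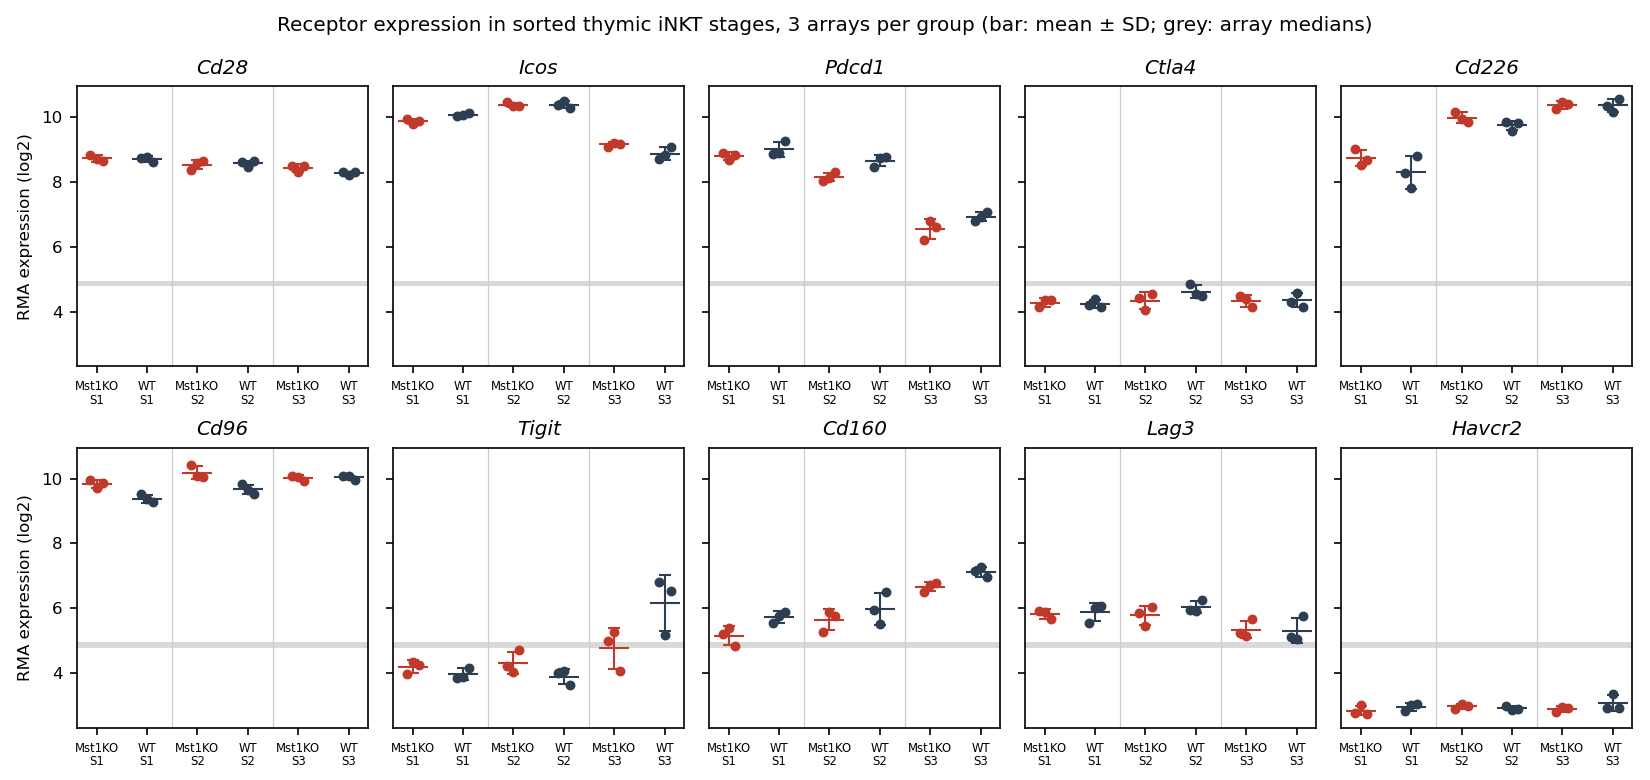
Log2 expression of the 10 receptors (y axis, 1 panel per gene) in Mst1KO and WT iNKT cells at S1, S2 and S3 (x axis), with 1 point per array, bars for mean ± SD of 3 arrays, and the range of array medians in grey. Pdcd1 is lowest at S3 in both genotypes, Cd226 lowest at S1, Tigit lies above the grey band on 5 arrays, all at S3, and Ctla4 and Havcr2 do not rise above it.

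Among the costimulatory receptors, Icos was lower at S3 than at S2 in both genotypes, by 2.32-fold in Mst1KO and 2.84-fold in WT, and Cd28 kept within a 1.37-fold range. At S1, Icos had 9.95, 9.80 and 9.87 in Mst1KO, against 10.03, 10.07 and 10.13 in WT. At S2 it had 10.46, 10.33 and 10.34 in Mst1KO, against 10.38, 10.50 and 10.27 in WT. Levels at S3 were 9.09, 9.21 and 9.18 in Mst1KO, against 8.70, 8.84 and 9.09 in WT. Every S3 array lay below every S1 and S2 array, and the S2 arrays were the highest.

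The Icos difference of S3 from S2 was -1.22 ± 0.10 in Mst1KO (adjusted p = 3.28e-07) and -1.51 ± 0.10 in WT (adjusted p = 1.58e-08). At S2 Icos was higher than at S1 by 0.50 ± 0.10 in Mst1KO (adjusted p = 0.00454), whereas the 0.31 ± 0.10 in WT was not called (adjusted p = 0.11). The difference between the genotypes in this step, 0.19 more in Mst1KO, was not called either. Between genotypes Icos was at -0.20 ± 0.10 at S1 with no overlap of arrays, -0.01 ± 0.10 at S2 (95% interval -0.22 to 0.20) and 0.28 ± 0.10 at S3, and none of the 3 was called (adjusted p = 0.468, 0.987 and 0.146). Whether the S3 value is called turns on 1 array: without WT S3 replicate 3 it was 0.39 with adjusted p = 0.0419, and the genotype difference in the S1 to S3 change, 0.48 ± 0.14 (adjusted p = 0.174), then had adjusted p = 0.0438.

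Cd28 had 8.84, 8.72 and 8.64 in Mst1KO S1 against 8.75, 8.78 and 8.60 in WT S1, and 8.38, 8.57 and 8.64 in Mst1KO S2 against 8.60, 8.48 and 8.63 in WT S2. At S3 it had 8.48, 8.30 and 8.51 in Mst1KO against 8.30, 8.23 and 8.30 in WT. The genotypes overlapped at every stage, and the highest group mean, 8.73 ± 0.10 in Mst1KO S1, was next to the 8.71 ± 0.09 of WT S1. The lowest mean was the 8.28 ± 0.04 of WT S3. Cd28 was lower at S3 than at S1, with differences of -0.31 ± 0.09 in Mst1KO (adjusted p = 0.023) and -0.44 ± 0.09 in WT (adjusted p = 0.00172). Its S3 to S2 difference was called in WT (-0.30 ± 0.09, adjusted p = 0.0319) and not in Mst1KO (-0.10 ± 0.09, adjusted p = 0.509), and the difference between these was not called. The Mst1KO call from S1 to S3 was lost without Mst1KO S1 replicate 1, Mst1KO S1 replicate 2 or Mst1KO S3 replicate 2 (adjusted p = 0.0511 to 0.115). The WT call from S2 to S3 was lost without WT S2 replicate 1 or 3 or any of the WT S3 arrays (adjusted p = 0.0577 to 0.103). Between genotypes Cd28 was at 0.02 ± 0.09 at S1, with a 95% interval of -0.18 to 0.22, at -0.04 ± 0.09 at S2 and at 0.15 ± 0.09 at S3, with no call (adjusted p = 0.953, 0.914 and 0.468).

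Pdcd1, which encodes the inhibitory receptor PD-1, was lower at each later stage and spanned 5.51-fold between the highest and lowest group means. At S1 it had 8.91, 8.68 and 8.84 in Mst1KO, against 8.86, 8.89 and 9.27 in WT. At S2 it had 8.03, 8.12 and 8.29 in Mst1KO, against 8.45, 8.74 and 8.78 in WT. In S3 cells the values were 6.21, 6.80 and 6.63 in Mst1KO, against 6.79, 6.91 and 7.08 in WT. In both genotypes every S3 array lay below every S2 array and every S2 array below every S1 array. Within a stage the genotypes separated fully only at S2, and at S3 a single Mst1KO array, 6.80, reached the lowest WT array, 6.79.

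Between S3 and S2, Pdcd1 differed by -1.60 ± 0.15 in Mst1KO (3.04-fold lower, adjusted p = 1.39e-06) and by -1.73 ± 0.15 in WT (3.32-fold lower, adjusted p = 3.22e-07). Between S2 and S1 it differed by -0.66 ± 0.15 in Mst1KO (1.58-fold lower, adjusted p = 0.0123), against an uncalled -0.35 ± 0.15 in WT (adjusted p = 0.25). The Mst1KO call was lost without Mst1KO S1 replicate 1 (adjusted p = 0.0561) or Mst1KO S2 replicate 1 (adjusted p = 0.0608), and the genotype difference in this step, -0.31, was not called. The genotype differences were negative at each stage, -0.20 ± 0.15 at S1, -0.51 ± 0.15 at S2 and -0.38 ± 0.15 at S3, and none was called (adjusted p = 0.686, 0.119 and 0.2).

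Ctla4 stayed below the median of its array on all 18 arrays. It had 4.28 ± 0.13 in Mst1KO S1 and 4.24 ± 0.13 in WT S1, 4.33 ± 0.27 in Mst1KO S2 and 4.61 ± 0.20 in WT S2, and 4.33 ± 0.18 in Mst1KO S3 and 4.35 ± 0.22 in WT S3. Its single arrays lay between 4.04 and 4.84, and the genotypes overlapped at each stage. In the fit without a filter none of its comparisons was called, and the one with the lowest p was S2 against S1 in WT, at 0.37 ± 0.15 (adjusted p = 0.307).

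In the family that shares nectin-like ligands, Cd226 was higher at S2 and S3 than at S1 in both genotypes. Cd96 was called higher in Mst1KO at S2 and Tigit lower in Mst1KO at S3, but both calls were lost without some single arrays. The Cd96 difference was 0.46 at S1, where it was not called, and 0.52 at S2. The genotype difference in its S1 to S2 change, 0.06, was not called by limma (adjusted p = 0.977). Cd226, the activating member, had 9.02, 8.52 and 8.68 in Mst1KO S1, against 8.28, 7.80 and 8.81 in WT S1. At S2 it had 10.17, 9.94 and 9.86 in Mst1KO, against 9.86, 9.59 and 9.81 in WT. Its S3 values were 10.25, 10.48 and 10.41 in Mst1KO, against 10.35, 10.17 and 10.57 in WT. The S1 arrays lay below all S2 and S3 arrays, and WT S1 had the widest spread of the 6 groups (SD 0.50).

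Cd226 was higher at S2 than at S1 by 1.25 ± 0.20 in Mst1KO (2.37-fold, adjusted p = 0.000727) and by 1.46 ± 0.20 in WT (2.74-fold, adjusted p = 0.00034). Between S3 and S1 the differences were 1.64 ± 0.20 in Mst1KO (adjusted p = 7.97e-06) and 2.07 ± 0.20 in WT (adjusted p = 3.76e-07). The step from S2 to S3 was called in WT (0.61 ± 0.20, adjusted p = 0.032) and not in Mst1KO (0.39 ± 0.20, adjusted p = 0.194), and the difference between them was not called. That WT call was lost without WT S2 replicate 2 or 3 or without WT S3 replicate 1 or 3 (adjusted p = 0.0602 to 0.121). The genotype difference of Cd226 was 0.45 ± 0.20 at S1, 0.24 ± 0.20 at S2 and 0.02 ± 0.20 at S3, and none was called (adjusted p = 0.406, 0.674 and 0.977). The 95% interval at S3 was -0.40 to 0.44.

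Cd96 had 9.96, 9.71 and 9.87 in Mst1KO S1, against 9.52, 9.36 and 9.27 in WT S1. At S2 it had 10.44, 10.10 and 10.04 in Mst1KO, against 9.83, 9.65 and 9.53 in WT. At S3 it had 10.09, 10.05 and 9.94 in Mst1KO, against 10.07, 10.07 and 9.97 in WT. The Mst1KO arrays lay above the WT arrays at S1 and at S2, and the genotypes overlapped at S3.

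At S2, Cd96 was 1.44-fold higher in Mst1KO (0.52 ± 0.11, 95% interval 0.28 to 0.76, adjusted p = 0.0345). Cd96 was the only receptor called among the 8 tested at that stage, where 1.17% of all genes were called and 0.714% were called higher. In the limma fit with no filter, 0 of the 10 were called at S2 (Cd96 adjusted p = 0.0542), beside 0.469% of all genes. The call was lost without Mst1KO S2 replicate 1 (0.40), Mst1KO S2 replicate 2 (0.57), WT S2 replicate 2 (0.51) or WT S2 replicate 3 (0.45), with adjusted p = 0.0533 to 0.134, and in a fit on only these groups the adjusted p was 0.239. At S1 the difference of 0.46 ± 0.11 was not called (adjusted p = 0.0981), and at S3 it was -0.01 ± 0.11 (adjusted p = 0.976, 95% interval -0.25 to 0.23). From S2 to S3 Cd96 was higher in WT (0.37 ± 0.11, adjusted p = 0.026) and at -0.17 ± 0.11 in Mst1KO (adjusted p = 0.362), but the genotype difference of these steps, -0.53 ± 0.16, was not called (adjusted p = 0.191). The WT call was lost without WT S2 replicate 2 or 3 or WT S3 replicate 1 or 2 (adjusted p = 0.0685 to 0.112).

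Tigit, the inhibitory member, was at the level of dim probe sets before S3, and its Mst1KO S3 mean, 4.77, also lay below the array medians. It had 3.96, 4.35 and 4.26 in Mst1KO S1 against 3.85, 3.87 and 4.17 in WT S1, and 4.21, 4.05 and 4.70 in Mst1KO S2 against 3.99, 4.05 and 3.62 in WT S2. The S3 arrays had 4.98, 5.27 and 4.05 in Mst1KO, against 6.80, 5.18 and 6.52 in WT. WT S3 replicates 1 and 3 were higher than all other arrays, while WT S3 replicate 2 lay inside the range of Mst1KO S3, so the genotypes overlapped. The spread at S3, with SDs of 0.64 in Mst1KO and 0.87 in WT, was wider than at S1 and S2, where the SDs were 0.18 to 0.34.

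At S3, Tigit was lower in Mst1KO in the limma fit with no filter (-1.40 ± 0.34, adjusted p = 0.0492). In the fit with the filter the difference was -1.40 ± 0.35 (95% interval -2.13 to -0.67, adjusted p = 0.0364). Tigit entered that fit through S3 alone, on 3 WT and 2 Mst1KO arrays, so its call there partly rests on the filter. No fold is given, because the mean of Mst1KO S3 lay below the array medians. Tigit was the only receptor called among the 8 tested at that stage, where 3.4% of all genes were called and 1.05% were called lower. Without Mst1KO S3 replicate 1 it was -1.50, without Mst1KO S3 replicate 3 -1.04, without WT S3 replicate 1 -1.08 and without WT S3 replicate 3 -1.22, each with the call lost (adjusted p = 0.0692 to 0.157). Without WT S3 replicate 2 it was -1.89 (adjusted p = 0.00125). A fit on only these groups gave adjusted p = 0.197. Because the filter let Tigit in through S3, its stage differences are taken from the fit with no filter. There, S3 minus S2 was 0.45 ± 0.34 in Mst1KO (adjusted p = 0.515) and 2.28 ± 0.34 in WT (adjusted p = 0.000114), and no fold is given because Tigit was below the median of every S2 array. The genotype difference between these steps was not called in that fit (-1.83 ± 0.48, adjusted p = 0.184). In the fit with the filter it was -1.83 ± 0.49, with a 95% interval of -2.86 to -0.79, and was not called either (adjusted p = 0.139). Without WT S3 replicate 2 it was -2.33 and was called (adjusted p = 0.0102), as was the genotype difference in the S1 to S3 change, at -2.12 (adjusted p = 0.0137) against -1.63 ± 0.49 with all arrays (adjusted p = 0.188).

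Cd160, which binds HVEM and is known from cytotoxic lymphocytes, was higher at S3 than at S2 in both genotypes, by 2.04-fold in Mst1KO and 2.21-fold in WT. It had 5.22, 5.41 and 4.83 in Mst1KO S1 against 5.54, 5.77 and 5.90 in WT S1, and 5.28, 5.88 and 5.77 in Mst1KO S2 against 5.95, 5.50 and 6.49 in WT S2. At S3 it had 6.51, 6.72 and 6.78 in Mst1KO, against 7.14, 7.27 and 6.96 in WT. The S3 arrays lay above all earlier ones of the same genotype, and Mst1KO lay below WT without overlap at S1 and at S3. The S3 to S2 difference was 1.03 ± 0.22 in Mst1KO (adjusted p = 0.00296) and 1.15 ± 0.22 in WT (adjusted p = 0.000819). The S2 to S1 difference was called in neither, with 0.49 ± 0.22 in Mst1KO (adjusted p = 0.209) and 0.25 in WT (adjusted p = 0.641). The genotype differences, -0.58 ± 0.22 at S1, -0.34 ± 0.22 at S2 and -0.46 ± 0.22 at S3, were not called (adjusted p = 0.298, 0.55 and 0.299).

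Lag3, an inhibitory receptor related to CD4, had 5.93, 5.88 and 5.65 in Mst1KO S1 against 5.55, 6.01 and 6.07 in WT S1, and 5.87, 5.45 and 6.02 in Mst1KO S2 against 5.95, 5.90 and 6.25 in WT S2. At S3 it had 5.23, 5.15 and 5.66 in Mst1KO, against 5.12, 5.05 and 5.76 in WT. The genotypes overlapped at every stage, and replicate 3 was the highest array in both S3 groups. In WT, Lag3 was lower at S3 than at S2 (-0.73 ± 0.20, 1.65-fold lower, adjusted p = 0.0151) and than at S1 (-0.57 ± 0.20, adjusted p = 0.0402). In Mst1KO the corresponding values were -0.44 ± 0.20 (adjusted p = 0.16) and -0.48 ± 0.20 (adjusted p = 0.0974), and the differences between genotypes in these steps were not called. The WT call against S2 was lost without WT S2 replicate 3 or WT S3 replicate 1 or 2 (adjusted p = 0.0654 to 0.0728), and the WT call against S1 without WT S1 replicate 2 or 3 or WT S3 replicate 1 or 2 (adjusted p = 0.121 to 0.161). Without Mst1KO S3 replicate 3, the Mst1KO difference of S3 from S1 was called (adjusted p = 0.0458). Between genotypes Lag3 was at -0.06 ± 0.20 at S1 (adjusted p = 0.95, 95% interval -0.48 to 0.37), -0.25 ± 0.20 at S2 (adjusted p = 0.658) and 0.03 ± 0.20 at S3 (adjusted p = 0.961).

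Havcr2, the gene of TIM-3, lay well below the array medians in every group, with 2.84 ± 0.14 in Mst1KO S1 and 2.96 ± 0.13 in WT S1. Its 18 arrays lay between 2.75 and 3.36, the highest being WT S3 replicate 2. Without a filter none of its comparisons was called, and the genotype difference at S3 was -0.18 ± 0.12 (adjusted p = 0.588).

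Set side by side, the genotype comparisons called 0 of the 8 receptors tested at S1, where 0.33% of all genes were called. At S2 and at S3 they called 1 each, as given above. With no filter, so that all 10 entered, the counts were 0 at S1, 0 at S2 and 1 at S3. The shares of all genes were then 0.126%, 0.469% and 1.35%. An unadjusted limma p under 0.05 was reached at S1 by 3 of the 8 tested (Cd160, Cd226 and Cd96; 11.2% of all genes), at S2 by 2 (Cd96 and Pdcd1; 13.4%) and at S3 by 4 (Cd160, Icos, Pdcd1 and Tigit; 16.7%). Arrays of the genotypes did not overlap for 3 receptors at S1 (Cd160, Cd96 and Icos), 3 at S2 (Cd226, Cd96 and Pdcd1) and 1 at S3 (Cd160), where this held for 18.1%, 16.8% and 23% of all genes.

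**Figure D2:**
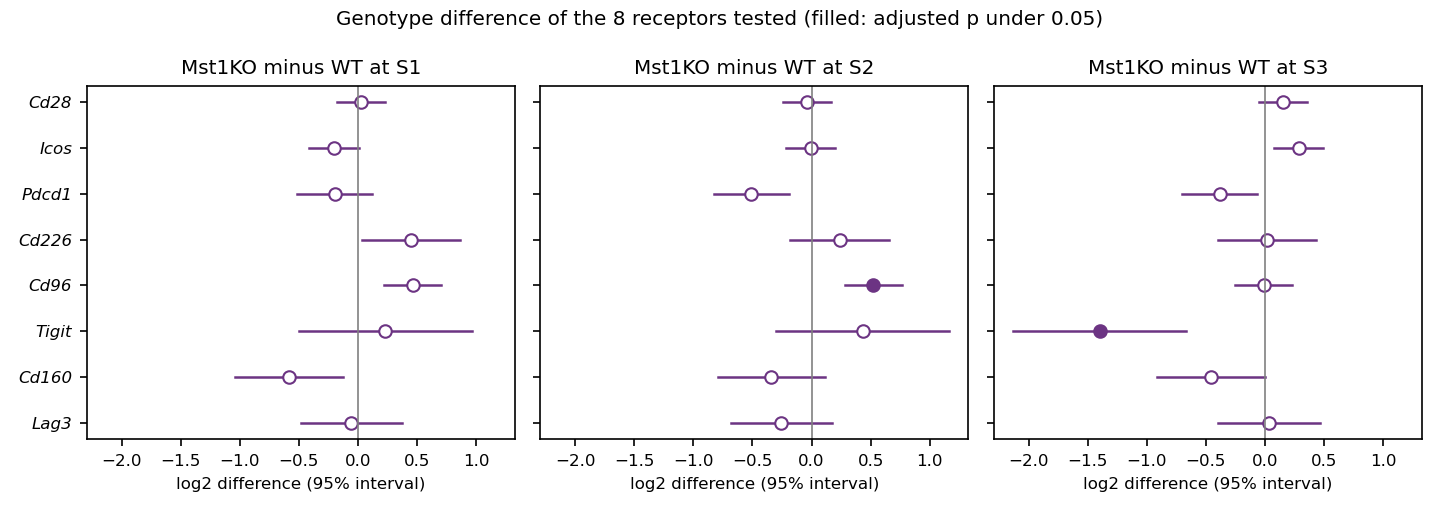
Log2 difference of Mst1KO from WT (x axis, point with 95% interval) at S1, S2 and S3 for the 8 receptors that passed the filter (y axis), filled where the adjusted p was under 0.05. Only Cd96 at S2 (0.52) and Tigit at S3 (-1.40) are filled, and the widest intervals belong to Tigit.

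Between S2 and S1, 3 receptors were called in Mst1KO, where 6.67% of all genes were: Cd226 and Icos were higher (3.77% of all genes) and Pdcd1 lower (2.9%). In WT, Cd226 alone was called and was higher, beside 3.84% of all genes called and 2.7% higher. Between S3 and S2, 3 were called in Mst1KO beside 17.2% of all genes, Cd160 higher (8.01% of all genes) and Icos and Pdcd1 lower (9.18%). In WT 8 were called beside 23.6% of all genes, with Tigit, Cd160, Cd226 and Cd96 higher (10.4% of all genes) and Pdcd1, Icos, Lag3 and Cd28 lower (13.2%). Leaving Tigit aside, which could enter only by being high at S3, 7 of the other 7 tested were called. Without a filter, so that all 10 entered, the WT count was 7 of 10 beside 12.2% of all genes, Cd28 being lost (adjusted p = 0.0615). Between S3 and S1, 5 were called in Mst1KO (26.6% of all genes) and 8 in WT (33.8% of all genes), or 7 of 10 in WT without a filter (18.6% of all genes). The WT count between S3 and S2 was 4 to 7 when any 1 array was left out, through the losses of Cd226, Cd96, Cd28 and Lag3 named above.

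The stage changes themselves were not shown to differ between the genotypes. Of the 8 receptors tested, 0 were called by limma for a genotype difference in the S1 to S2 change (0.0153% of all genes called). Likewise 0 were called in the S2 to S3 change (0.368%) and in the S1 to S3 change (0.56%). With an unadjusted p under 0.05 there were 0 for the S1 to S2 change (6.77% of all genes), 2 for the S2 to S3 change (Cd96 and Tigit; 11.2%) and 3 for the S1 to S3 change (Cd96, Icos and Tigit; 10.7%).

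**Figure D3:**
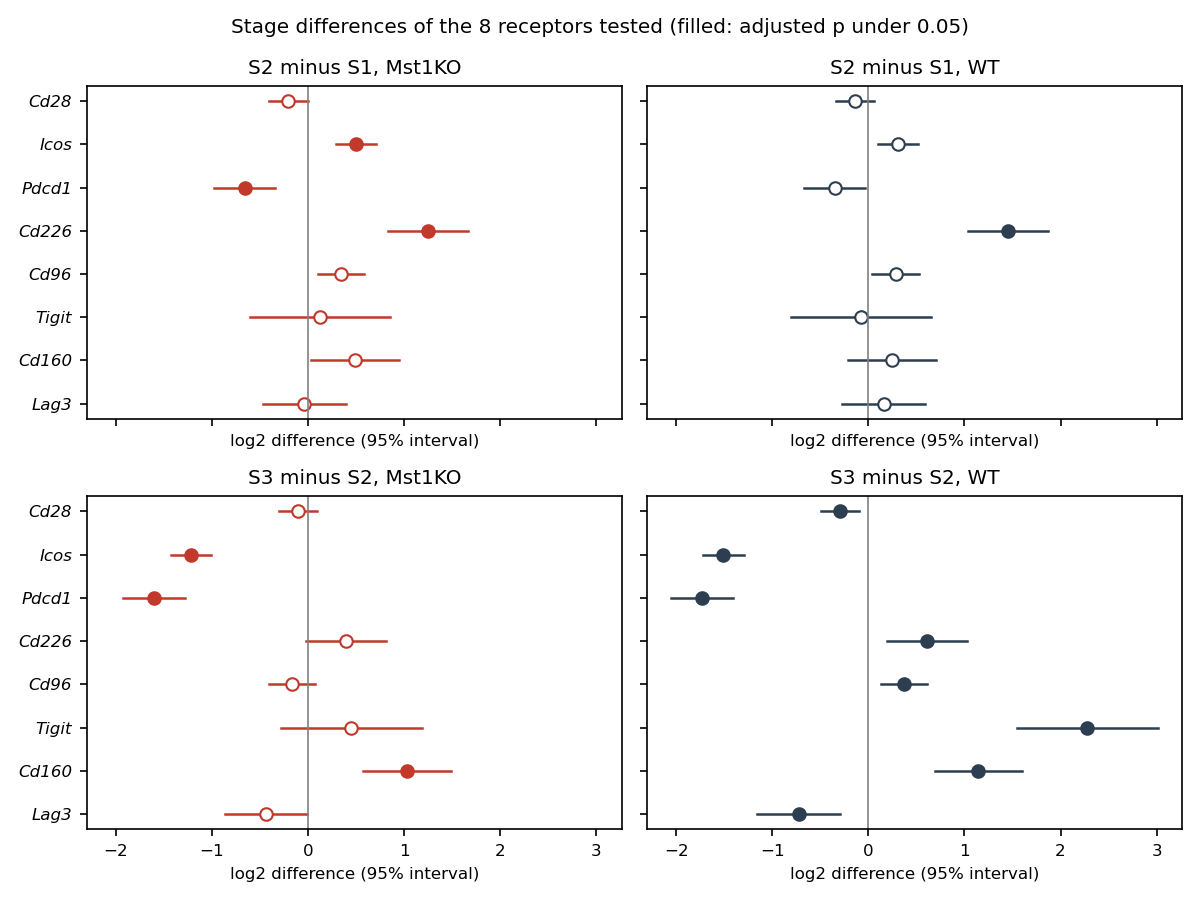
Log2 difference between consecutive stages (x axis, point with 95% interval) for the 8 receptors tested (y axis), S2 minus S1 above and S3 minus S2 below, with Mst1KO left and WT right, filled where the adjusted p was under 0.05. Icos and Pdcd1 are lower and Cd160 higher at S3 in both genotypes, and Tigit stands at 0.45 in Mst1KO and 2.28 in WT.

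Genes listed as markers of other cells moved with some of these comparisons. Of 6 NK and innate lymphoid markers, 5 passed the filter. From S2 to S3, where Tigit and Cd160 were higher in WT, 4 of these were called higher in Mst1KO and 5 in WT. Of all genes, 8.01% were called higher in Mst1KO and 10.4% in WT at this step. Klri2 and Ncr1 lay below the array medians at S1 and S2, so like Tigit they passed the filter through S3 alone. The counts were therefore partly set by the filter. The defining NK gene Eomes stayed below the medians. The summed level of this list was 9.62 to 9.74 in Mst1KO S2 and 9.55 to 9.66 in WT S2, and 10.90 to 11.02 in Mst1KO S3 and 10.90 to 11.04 in WT S3. Ncr1, an NK cell receptor gene, was 5.05, 4.40 and 4.18 in Mst1KO S3, against 4.91, 4.89 and 6.54 in WT S3, so of the 2 WT S3 arrays with high Tigit it was high in replicate 3 alone. Of this list 1 gene was called between genotypes at S3, Tyrobp, a signalling adaptor of NK receptors and of myeloid cells, which was higher in Mst1KO (0.88 ± 0.19, adjusted p = 0.0193). Its means at S3 were 8.01 in Mst1KO and 7.13 in WT, with no overlap of arrays, while Ncr1 was at -0.91 ± 0.33 and was not called (adjusted p = 0.167). NK1.1 defines the S3 gate and is itself an NK marker, and the part of these cells in the stage and genotype differences was not tested.

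Other marker lists also moved with the stages, and the markers named with values were chosen after their values were seen. Beside their counts, 6.67% of all genes in Mst1KO and 3.84% in WT were called from S1 to S2. From S2 to S3 these shares were 17.2% in Mst1KO and 23.6% in WT. From S1 to S2, 4 conventional T cell markers were lower in Mst1KO and 3 in WT, led by Igfbp4 (-1.32 ± 0.15 in Mst1KO and -1.30 ± 0.15 in WT). Blk, from the gamma-delta list, was higher by 3.46 ± 0.30 in Mst1KO, and was also called in WT. Of the macrophage and dendritic markers 5 were higher in Mst1KO and 0 in WT. Of the regulatory T cell markers Il2ra was higher and Ikzf4 lower in both. From S2 to S3, 3 conventional T cell markers were lower in each genotype, led by Igfbp4 (-2.82 ± 0.15 in Mst1KO and -2.66 ± 0.15 in WT), 2 gamma-delta markers were lower in each, Ikzf4 was lower in each, and 4 macrophage and dendritic markers were higher in each. The conventional T cell list summed to 12.10 to 12.23 in Mst1KO S1, 10.92 to 11.26 in Mst1KO S2 and 10.07 to 10.29 in Mst1KO S3. In WT it summed to 11.741 to 11.995 at S1, 11.03 to 11.31 at S2 and 10.24 to 10.32 at S3. At S1 the WT sums thus lay below the Mst1KO sums without overlap. All 6 of its markers that passed the filter had a positive difference of Mst1KO from WT at S1 (median 0.41), and 0 were called. The part of these cells in the receptors' stage and genotype differences was not tested.

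Beside the Tigit difference at S3, the 3 genes listed as gamma-delta T cell markers summed to 9.35 to 9.43 in Mst1KO and 7.57 to 8.10 in WT. Of the 3, 2 were called higher in Mst1KO, Blk (2.39 ± 0.30) and Cd163l1 (1.03 ± 0.12). Both lay above the array medians in every group, with lowest array values of 5.61 and 6.02, in cells sorted by TCR beta. Whether this RNA came from gamma-delta T cells or from the sorted iNKT cells was not tested. The 8 macrophage and dendritic markers summed to 9.68 to 10.14 in Mst1KO S3 and 9.30 to 9.51 in WT S3, with 1 called (C1qb, 0.94 ± 0.23). Beside the Cd96 difference at S2 the same lists summed to 10.14 to 10.58 in Mst1KO and 9.50 to 10.15 in WT, and to 9.10 to 9.25 in Mst1KO and 8.70 to 8.98 in WT, with 1 of each called (Cd163l1, 0.64 ± 0.12, and Itgax, 0.93 ± 0.18). Regulatory T cells carry much Icos, Ctla4 and Tigit, and of their 5 markers 0 of the 3 that passed the filter were called between genotypes at any stage, while Foxp3, at 3.77 to 4.95 over the 18 arrays, did not pass it. The summed level of that list at S3 was 8.72 to 8.78 in Mst1KO and 8.54 to 8.78 in WT. The summed level of 4 B cell markers did not overlap between genotypes at S1 or at S2. It summed to 10.23 to 10.62 in Mst1KO S1, against 9.604 to 9.972 in WT S1. At S2 it summed to 10.44 to 10.69 in Mst1KO, against 9.96 to 10.38 in WT. At S3 the genotypes overlapped, with 10.69 to 10.84 in Mst1KO and 10.76 to 11.16 in WT. Of the 2 B cell markers that passed the filter, 0 were called between genotypes at any stage. Their differences were 0.07 and 0.68 at S1 and 0.00163 and 0.40 at S2. A sum of linear values is weighted to the brightest gene, so the separation of the sums need not hold for each marker. The part of any of these cells in the receptor differences was not tested.

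The ligands of the receptors were measured in the same sorted cells, so their values say nothing of the cells that present them in the thymus. Beside the counts of this and the next lists, 0.33% of all genes were called between genotypes at S1, 1.17% at S2 and 3.4% at S3. From S1 to S2 the shares were 6.67% in Mst1KO and 3.84% in WT, and from S2 to S3 17.2% and 23.6%. Of 15 ligand genes 12 passed the filter. Between genotypes 0 were called at S1, 0 at S2 and 1 at S3, Lgals3 (0.42 ± 0.09, adjusted p = 0.012), whose product galectin-3 is a reported LAG-3 ligand; the median ligand difference at S3 was 0.04, beside 0.01 for all genes. Lgals3 had 6.23, 6.29 and 6.27 in Mst1KO S3, against 5.94, 5.80 and 5.80 in WT S3, with no overlap.

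From S2 to S3 the ICOS ligand gene Icosl was higher as Icos itself was lower, by 1.12 ± 0.15 in Mst1KO (adjusted p = 4.82e-05) and 1.48 ± 0.15 in WT (adjusted p = 1.52e-06). The highest Icosl arrays were at 4.65 at S1, 4.74 in Mst1KO S2 and 4.89 in WT S2, beside array medians of 4.81 to 4.93. Icosl thus passed the filter only with its S3 arrays, so its calls at this step were partly set by the filter. Pvr, the gene of CD155, which TIGIT, CD226 and CD96 bind, was higher by 1.37 ± 0.22 in Mst1KO (adjusted p = 0.000275) and 1.34 ± 0.22 in WT (adjusted p = 0.000208). Lgals3 was lower in both. These were the only ligands called in Mst1KO at this step, 2 higher and 1 lower, while in WT 2 were higher and 3 lower, with Nectin1 and Hmgb1 added. The ligand medians of this step were 0.06 in Mst1KO and 0.01 in WT, beside -0.03 and -0.000977 for all genes. Between S2 and S1, 1 ligand was called in each genotype, Nectin1 higher in Mst1KO (0.55 ± 0.15, adjusted p = 0.0306) and Ceacam1, a reported TIM-3 ligand, lower in WT (-1.47 ± 0.24, adjusted p = 0.00171). Nectin1 lost its call in 5 of 6 fits without an array in Mst1KO and in 6 of 6 in WT, and Hmgb1 in 2 of 6.

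A list of other inhibitory or costimulatory receptors, which also held ligand genes such as Cd200, had 21 genes on the array. Of these, 17 passed the filter, and 2 were called between genotypes at S3 and 0 at S1 and at S2. Cd244a, the gene of the NK and T cell receptor 2B4, was 2.96-fold lower in Mst1KO at S3 (-1.56 ± 0.25, adjusted p = 0.00194). It had 6.38, 6.72 and 6.19 in Mst1KO S3, against 8.26, 7.71 and 8.02 in WT S3, which did not overlap. Cd5, which dampens the T cell receptor signal, was higher by 0.44 ± 0.09 (adjusted p = 0.0147), a call lost in 2 of 6 fits without an array. The median of the 17 at S3 was 0.02, beside 0.01 for all genes.

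From S2 to S3, 4 of these 17 were higher and 1 lower in Mst1KO, beside 17.2% of all genes called. In WT 5 were higher and 2 lower, beside 23.6%. Cd244a was higher by 1.76 ± 0.25 in Mst1KO and 2.94 ± 0.25 in WT, Tnfrsf18 (GITR, a costimulatory TNF receptor) by 1.21 ± 0.12 in Mst1KO and 1.04 ± 0.12 in WT, and Cd2, an adhesion and costimulatory receptor, by 0.77 ± 0.19 in Mst1KO and 1.00 ± 0.19 in WT. Cd200, whose product is the ligand of the inhibitory receptor CD200R, was the 1 gene lower in Mst1KO, at -2.01 ± 0.21. In WT Cd200 was also lower, at -2.35 ± 0.21. Cd27 was called in Mst1KO alone (0.64 ± 0.09), and Cd101, Vsir and Cd5 in WT alone (1.31 ± 0.19, 0.55 ± 0.12 and -0.57 ± 0.09), but 0 of the 17 were called for a difference between the genotypes in this step. The medians were 0.14 in Mst1KO and 0.17 in WT, beside the same values for all genes as above. Between S2 and S1, 2 were higher and 2 lower in Mst1KO, and 2 higher in WT, Vsir being higher in both (0.67 ± 0.12 and 0.66 ± 0.12).

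All 12 genes for proteins that carry the signals of these receptors passed the filter, and 0 were called between genotypes at any stage, with medians of 0.09 at S1, 0.04 at S2 and -0.01 at S3. From S2 to S3, Ptpn6, which encodes SHP-1, was higher by 0.55 ± 0.08 in Mst1KO and 0.52 ± 0.08 in WT, and Pik3cd, a catalytic PI3-kinase subunit, by 0.42 ± 0.09 in Mst1KO and 0.53 ± 0.09 in WT. Grap2, an adaptor that binds CD28, was lower in Mst1KO (-0.47 ± 0.11), and the regulatory subunit gene Pik3r1 was higher in WT (0.26 ± 0.09). In all 2 were higher and 1 lower in Mst1KO and 3 were higher in WT, and between S2 and S1 the counts were 0 in Mst1KO and 1 in WT (Inpp5d, the phosphatase SHIP-1, 0.33 ± 0.09). The Inpp5d call was lost in 5 of 6 fits without an array and the Pik3r1 call in 4 of 6.

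Of 16 transcription factor genes known to regulate such receptors in T cells, 14 passed the filter. Between genotypes 0 were called at S1, 1 at S2 (Prdm1, encoding Blimp-1, 0.71 ± 0.14, adjusted p = 0.0196) and 4 at S3, 3 higher and 1 lower, with a median at S3 of -0.03 beside 0.01 for all genes. Irf4, a factor induced by T cell receptor signals, was 2.40-fold higher in Mst1KO at S3 (1.26 ± 0.13, adjusted p = 2.11e-05), with 6.41, 6.75 and 6.69 in Mst1KO S3, against 5.07, 5.54 and 5.45 in WT S3. Nr4a1, another such gene, was higher by 0.63 ± 0.12 (adjusted p = 0.00738) and Batf, a partner of IRF4, by 0.45 ± 0.11 (adjusted p = 0.0364), while Nr4a2 was at -0.61 ± 0.15 (adjusted p = 0.0339). The Batf call was lost in 5 of 6 fits without an array, the Nr4a2 call in 4 and the Prdm1 call in 3.

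**Figure D4:**
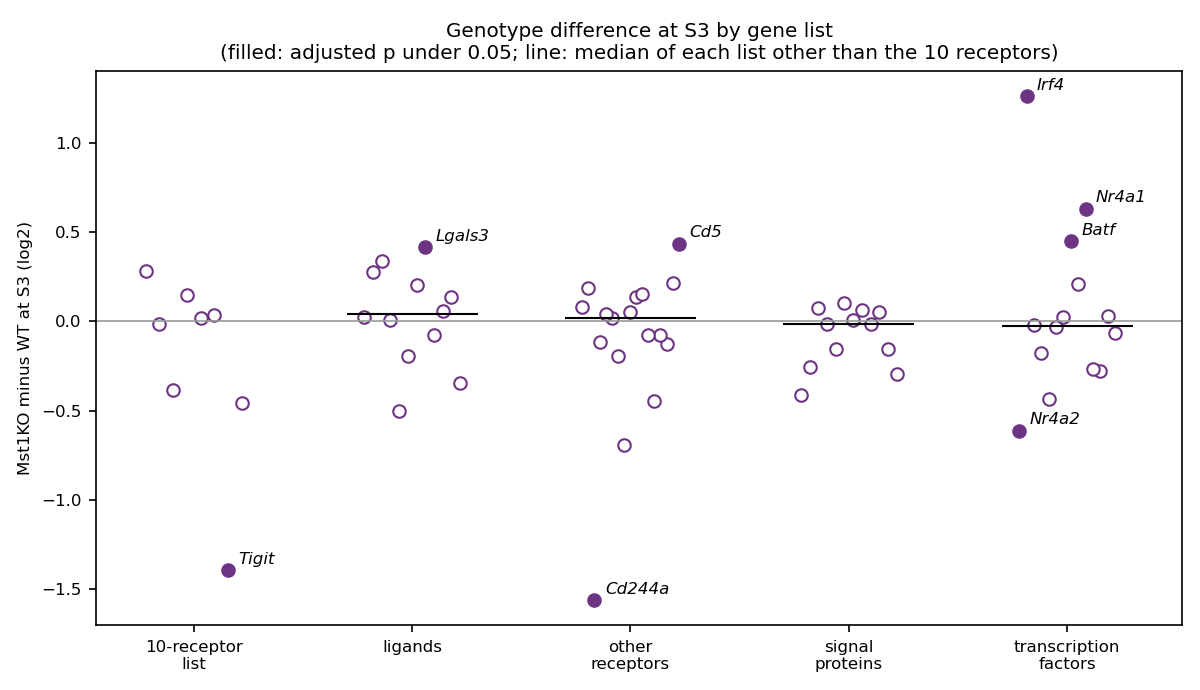
Log2 difference of Mst1KO from WT at S3 (y axis) for each gene that passed the filter in the 10-receptor list and in the lists of ligands, other receptors, signal proteins and transcription factors (x axis), filled where the adjusted p was under 0.05, with a line at the median of each list other than the receptors. Tigit (-1.40) and Cd244a (-1.56) are the lowest filled points and Irf4 (1.26) the highest.

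From S2 to S3, 3 of the 14 factors were higher and 3 lower in Mst1KO, where 8.01% of all genes were called higher and 9.18% lower. In WT 6 were higher and 5 lower, beside 10.4% and 13.2% of all genes. Irf4 was lower, at -1.63 ± 0.13 in Mst1KO and -2.72 ± 0.13 in WT, as were Nr4a1 at -0.53 ± 0.12 in Mst1KO and -1.12 ± 0.12 in WT, and Tox at -0.36 ± 0.12 in Mst1KO and -0.67 ± 0.12 in WT. Tbx21, which encodes the T-box factor T-bet, was higher by 1.58 ± 0.15 in Mst1KO and 1.27 ± 0.15 in WT, and Runx3 by 0.83 ± 0.21 in Mst1KO and 1.24 ± 0.21 in WT. Of these 14, Irf4 alone was called for a genotype difference in the step (1.09 ± 0.18, adjusted p = 0.0114). The medians were 0.13 in Mst1KO and 0.25 in WT. From S1 to S2, 5 were higher in Mst1KO (Maf, Runx3, Tbx21, Prdm1 and Batf) and 3 in WT (Tbx21, Maf and Runx3). Without an array, the Tox call in Mst1KO was lost in 5 of 6 fits and the Runx3 call from S1 to S2 in WT in 4 of 6.

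The genes whose 6 group means were most like those of a receptor were found for the 5 receptors that spanned over 1 on the log2 scale, by the root mean square of the differences after each gene was centred on its mean. For Pdcd1 these were Fbln1 (0.08), Cpq (0.11) and Gtf2ird1 (0.12), beside a median of 0.95 over all genes. For Icos they were Ckb (0.11), Cmtm7 (0.17) and Plxnc1 (0.17), beside 0.59. For Cd160 they were Chsy1 (0.12), Arsb (0.14) and Kdm4d (0.14), beside 0.68, and for Cd226 Gpr132 (0.17), P2ry10 (0.17) and Sntb1 (0.19), beside 0.81. Tigit had the least close matches of the 5, Baiap3 (0.24), Gbp5 (0.26) and Gm11714 (0.26), beside 0.79. Among the receptors themselves Lag3 and Cd28 were the closest pair (0.17) and Pdcd1 and Cd226 the most distant (1.67). Many genes follow the stages in these arrays, and the measure describes the 6 means only.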

How the data were processed

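Per the submitters' processing notes, the authors ran RMA in Affymetrix Expression Console 1.1. The authors deposited 1 log2 value for each probe set and array, and these values alone do not show whether the 18 arrays were normalized together. Gene names came from the platform annotation. A probe set with 1 symbol entered the tests if it exceeded the median of its array on 3 or more arrays, and the brightest was used where a gene had several, which gave 13034 genes. limma 3.58.1 in R 4.3.3 fitted a mean for each of 6 groups over all genes, with Benjamini-Hochberg adjustment per comparison, and was tested on simulated data.

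The receptors, gene lists and markers were chosen with earlier results of these data known. Named genes were the 10 receptors, up to 4 members of each list with the lowest p, every list member called between genotypes, and other list members with their values. The summed level of a marker list is the log2 of the sum of its members' linear values. Promoters came from a RefSeq table.

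Alternatives were no filter, a stricter filter, other normalizations, array weights, a robust fit with a variance trend, averaged probe sets, a 1.5-fold threshold, only the groups compared, replicate blocks and leaving out each array. Replicate numbers were not treated as pairs, since the labels do not say what they mark. Arrays of different stages were therefore fitted as independent, although the 3 mice per genotype may have given cells to all 3 stages. In no comparison were all 3 same-numbered pairs correlated over 0.1, which does not exclude pairing. Python 3.11.15 with pandas 2.3.3 and matplotlib 3.10.9 drew the figures.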

Additional observations from a re-analysis of the deposited data

Results flagged for a closer look

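Genes outside the 10 receptors whose stage change differed between the genotypes in the interaction test are given as values. Irf4 differed by 1.09 from S2 to S3 (adjusted p = 0.0114) and by 1.1 from S1 to S3 (adjusted p = 0.00648), with 6.41, 6.75 and 6.69 in Mst1KO S3 against 5.07, 5.54 and 5.45 in WT S3. Lgals3 differed by 0.657 from S1 to S3 (adjusted p = 0.0156), with 6.89, 6.88 and 6.80 in Mst1KO S1 against 7.07, 7.07 and 7.14 in WT S1, and the call was lost in 1 of 12 fits without an array. Blk, from the gamma-delta T cell list, differed by 3.28 from S1 to S3 (adjusted p = 0.00133), and which cells gave its RNA was not tested. Its S1 values were 6.27, 6.40 and 6.31 in Mst1KO against 6.94, 6.85 and 7.85 in WT. At S3 Blk had 8.74, 8.77 and 8.81 in Mst1KO, against 6.59, 6.93 and 5.61 in WT.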

How the results depend on the processing

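No receptor difference that was called in the main fit or in an alternative run reversed between them. Changes of sign in differences called in neither were not counted. Of 96 receptor results, 17 lost their call with an added 1.5-fold threshold, 6 lost and 1 gained it in fits on only the groups compared, 3 lost it with array weights, 3 with no filter and 2 with median centring, and 3 gained it with a variance trend and robust fit. Repeated quantile normalization and the mean of probe sets changed none, nor did the stricter filter among the 72 results it kept; it left out Tigit and Lag3.

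The number of receptors called at S1 between genotypes was 0, and 1 with the variance trend (Cd96). At S2 it was 1, and 0 with no filter, with array weights, with the 1.5-fold threshold and with only the groups compared. At S3 it was 1, and 0 with the stricter filter, the 1.5-fold threshold and only the groups compared. With the 1.5-fold threshold the S2 to S1 counts were 0 in Mst1KO (3 without it) and 0 in WT (1 without it), the S3 to S1 counts 3 in Mst1KO (5) and 5 in WT (8), and the WT S3 to S2 count 3 (8). With the variance trend the WT S2 to S1 count was 2. Leaving out 1 array gave 0 to 1 between genotypes at S2 and at S3, 4 to 7 for WT S3 against S2, and 0 to 1 for the genotype difference in the S2 to S3 and in the S1 to S3 change.

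With replicate number as a fixed block, 1 of the 96 calls was lost, Tigit at S3 between genotypes (adjusted p = 0.0501, count 0), and 3 were gained, Cd96 at S1 between genotypes (adjusted p = 0.0424, count 1), Cd96 from S1 to S2 in Mst1KO and Lag3 from S1 to S3 in Mst1KO. As a random block (correlation 0.037) it changed none. Deviations of same-numbered arrays correlated at -0.05 to 0.21, and in 6 of 9 comparisons every same-numbered pair correlated above every other pair, a hint from the data and not from the design.

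The share of all genes called between genotypes ranged over the alternatives other than left-out arrays from 0.0153% to 1.24% at S1, 0% to 2.76% at S2 and 0.292% to 6.96% at S3, lowest with the 1.5-fold threshold and highest with the stricter filter. Leaving out 1 array gave 0.0691% to 0.176% at S1 (0.33% with all arrays), 0.299% to 1.23% at S2 (1.17%) and 1.53% to 2.83% at S3 (3.4%). The cause of these shifts was not tested. Ctla4 and Havcr2 were too dim for a change to be measured well.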
